A study of Macaca mulatta with 24 samples.

Results

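Ileum of 4 rhesus macaques killed on day 7 after 7.4-Gy TBI (total-body irradiation) was compared with ileum of 4 unirradiated rhesus macaques, across all genes on the array. These 8 arrays are 8 of the 24 arrays of the ileum experiment and were chosen by their sample titles, which give tissue, day, dose and replicate number. All animals were young-adult males without known disease. The irradiated animals received a single uniform dose of gamma rays from a cobalt source, and the controls were sham-irradiated, carry the dose 0 in the labels and are labelled day 4, with no control of day 7. RNA came from whole gut wall of a short ileal segment, so that epithelium, lamina propria, lymphoid follicles, muscle, nerves and the blood held in the tissue all contributed. Each animal has 1 array and no RNA was pooled. The remaining arrays of the experiment (6.7 Gy on days 4, 7 and 12, and 7.4 Gy on days 4 and 12) entered the estimate of the spread, and those of day 4 after 7.4 Gy and of day 7 after 6.7 Gy are also used for direct comparison.

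The ileum is a lymphoid organ as much as an absorptive one. Its Peyer's patches and lamina propria hold B cells, plasma cells, T cells and dendritic cells, several of which are among the most radiosensitive cells of the body, and its epithelium is renewed within days from stem cells at the base of the crypts. Ionizing radiation activates the transcription factor p53, which induces genes of cell cycle arrest, DNA repair and apoptosis. Red blood cell precursors in the bone marrow are radiosensitive too, and the young red cells that carry leftover globin RNA reach every organ with the blood.

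Signal is given on a log2 scale on which 0 is the 75th percentile of the array (between 836.1 and 1191 intensity units on these 8 arrays), and a change is the mean of the irradiated animals minus the mean of the controls (4 animals each), with its SE from limma. Tested were the 36108 probes that exceeded background clearly in all animals of 1 or more of the 7 groups. A probe is called altered if its adjusted p from limma (Benjamini-Hochberg over all tested probes) is under 0.05 and its change is 2-fold or more. A gene is represented by its brightest tested probe, and "adjusted p" below always means that of limma. Of all probes, 83.2% to 88.1% were well above background on the control arrays and 76.5% to 87% on the irradiated arrays, and no spot was saturated. All control arrays lie in position 1 of their slides and the irradiated arrays in positions 3 and 4, so that array position and irradiation cannot be told apart. Irradiated animals 3 and 4 shared slides 1 and 2 and the scan day with controls, whereas irradiated animals 1 and 2 were on slides without a control and scanned on another day. Control 1 stood apart from the other controls in its signals of smooth muscle genes, as described below. Control 4 had the highest medians of the B cell and plasma cell lists among the controls. The ileal identity of the tissue was clear in both groups, with FABP6, the bile acid binding protein of ileal enterocytes, at 8.66 to 8.78 in the controls and 8.44 to 9.18 in the irradiated animals (change 0.09 ± 0.23 SE, adjusted p = 0.89).

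On day 7 the altered genes of the ileum were mostly lower. Some genes of red cells, B cells, plasma cells, T cells and dendritic cells were among those that fell. Outside globin many of the deepest falls ended near background, and with normexp (another background correction) their order differed. In whole tissue, fewer cells of a type and less RNA in each cell cannot be told apart for any gene. Of 36108 tested probes, 205 were altered (0.568%), 41 of them higher (0.114%) and 164 lower (0.454%). Without adjustment, 859 probes (2.38%) had a p under 0.05 and a 2-fold change. At the level of genes, 103 of 14169 were altered (0.727%), of which 23 rose (0.162%) and 80 fell (0.565%). The median change of all tested genes was -0.02 (quartiles -0.21 and 0.17), and 52.7% of them had a change below 0. Without regard to the test, all 4 irradiated animals lay above all 4 controls for 560 genes (3.95%) and below them for 618 (4.36%). Among the altered genes the groups did not overlap for 22 of the 23 that rose and 79 of the 80 that fell. Among the altered probes this held for 40 of 41 that were higher (3.72% of all probes) and 161 of 164 that were lower (4.24%). The calls rest on the difference between the same 8 animals, so that this separation largely follows from them. Within slide 1, within slide 2 and among the arrays of the first scan day, each of the 205 altered probes changed in the same direction as in all 8 animals, but these arrays are part of the calls. When 1 animal was left out, between 138 and 202 probes were called. Of the 68 altered genes described here, 32 lost their call with normexp, 29 with slide as a block, 41 with the arrays of the first scan day alone and 42 when only the 8 arrays of both groups were fitted.

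**Figure D1:**
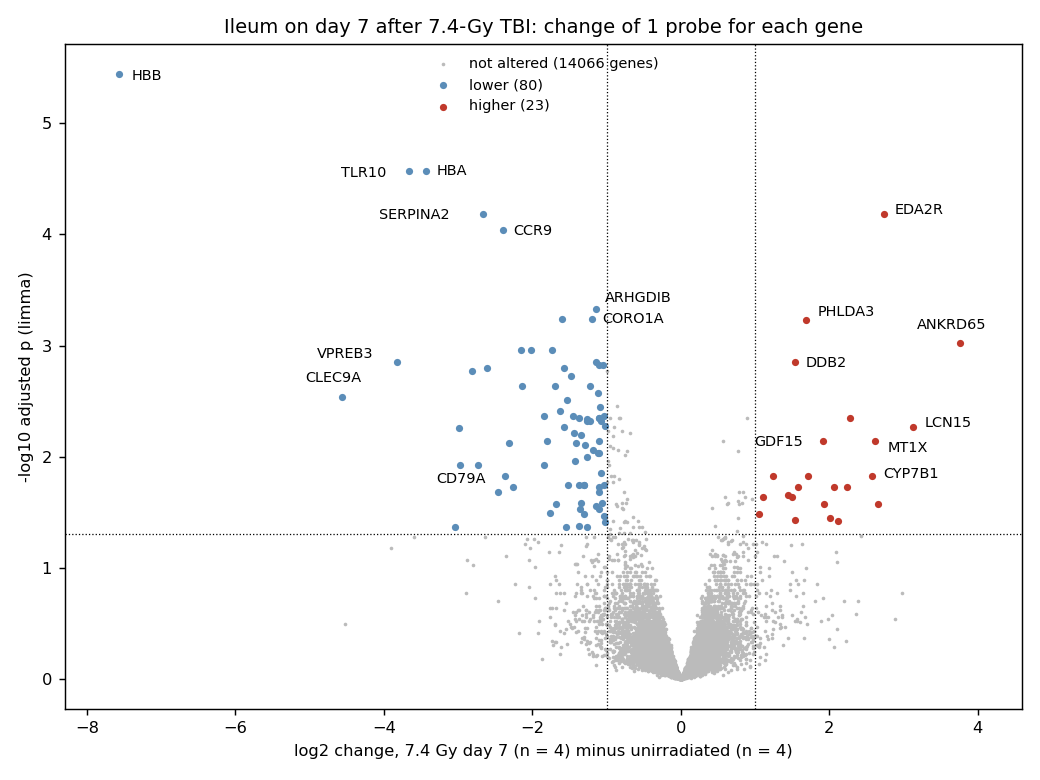
Change of each gene in ileum on day 7 after 7.4-Gy TBI (horizontal axis, log2 scale, mean of 4 irradiated minus mean of 4 unirradiated animals) against the -log10 of the adjusted p from limma (vertical axis), with 1 point for the brightest probe of each gene. Dotted lines mark the limits of the call, a 2-fold change and an adjusted p of 0.05; the 80 altered genes that fell (blue) outnumber the 23 that rose (red), and HBB lies farthest to the left at -7.57.

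The deepest fall was that of globin RNA. HBB, the beta chain of adult haemoglobin, had a log2 signal of 0.80, 1.38, 2.51 and 2.76 in controls 1 to 4 and of -5.19, -5.97, -5.63 and -6.01 in irradiated animals 1 to 4. The groups were separated by a gap far wider than the spread within either, and HBB fell by 7.57 ± 0.62 SE (adjusted p = 3.6e-06), and by 5.56 with normexp. Its other tested probe changed by -7.70 and was not well above background in any irradiated animal, which bounds the fall on that probe at 46.7-fold at least. The probe annotated as HBA, for the alpha chain, read 0.37, 0.75, 2.07 and 2.37 in the controls and -2.0, -2.25, -1.94 and -1.98 after irradiation. It fell by 3.43 ± 0.34 SE (adjusted p = 2.7e-05), and as for HBB the irradiated animals lay closer together (SD 0.14) than the controls (SD 0.98). A probe annotated as HBA1, which shares nearly all of its sequence with the other alpha globin copy, gave 7.06 in the controls and 7.00 after irradiation (change -0.07 ± 0.12 SE, adjusted p = 0.84), so the alpha globin probes disagree.

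No other gene of the erythroid list was called on its brightest probe, though most had a change below 0. Of 32 genes, 22 were tested, HBB was the only one altered on its brightest probe (it fell, as 0.565% of all genes did), and the median change of the list was -0.19. The list holds HBA1 and not the probe annotated as HBA. Of the 22, 17 had a change below 0 (52.7% of all genes). In 3 of them all irradiated animals lay below all controls (4.36% of all genes): HBB, HBG2 and ANK1 (change -1.28, adjusted p = 0.24). AHSP, the chaperone of free alpha globin, changed by -0.24 (adjusted p = 0.39) and KLF1, the transcription factor of the red cell lineage, by -0.20 (adjusted p = 0.83). For HBG2, a fetal beta-like chain, the brightest probe changed by -0.53 (adjusted p = 0.096), whereas a second probe was altered at -2.25. SERPINA2, a relative of alpha-1-antitrypsin, followed the globin pattern: its signal was -0.28, 0.15, 1.37 and 1.44 in controls 1 to 4, the same order of animals as for HBB and HBA, and -1.87, -2.06, -2.06 and -1.95 in the irradiated animals. SERPINA2 fell by 2.66 ± 0.28 SE (adjusted p = 6.5e-05).

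B cell genes were lower. Of 19 tested genes of the B cell list, 17 had a change below 0, 6 fell and none rose (31.6% altered, against 0.727% of all genes), 10 had irradiated animals all below the controls (4.36% of all genes), and the median change was -1.15. Control 4 had the highest median of the list among the controls (0.67 from their mean, the others -0.46 to -0.04), and without it the median change was -0.98. With normexp it was -0.38. VPREB3, which assists the assembly of the B cell receptor, read -3.69, -4.12, -3.58 and -2.44 in the controls and -7.57, -7.84, -6.62 and -7.14 in the irradiated animals, of which 1 was well above background. It fell by 3.83 ± 0.54 SE (adjusted p = 0.0014), and by 1.06 with normexp, where CD79B of the same list changed by -1.16. CD79A, a signalling subunit of the B cell receptor, read -4.15, -4.14, -3.18 and -1.95 in the controls and -5.12, -5.27, -5.35 and -7.17 after irradiation, and fell by 2.37 ± 0.48 SE (adjusted p = 0.015). Control 4 had the highest value and irradiated animal 4 the lowest, and without either of these the call was lost (adjusted p = 0.053 and 0.062).

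CD79B, the partner of CD79A, fell by 1.34 (adjusted p = 0.026), but its call was lost without any of controls 3 and 4 or irradiated animals 1 to 4 (change -1.39 to -0.98, adjusted p = 0.050 to 0.087). A dimmer probe of CD79B was altered at -2.41 (adjusted p = 0.0064). FCRL2, an Fc receptor-like protein of memory B cells and well above background in 2 irradiated animals, fell by 1.84 (adjusted p = 0.012), and STAP1, an adaptor in B cell receptor signalling, by 1.81 (adjusted p = 0.0072). FCMR, the Fc receptor for IgM, fell by 1.42 (adjusted p = 0.0076). Of these 6 calls, those of CD79A, CD79B, FCRL2 and STAP1 were lost with slide as a block (adjusted p = 0.081 to 0.15), and normexp put CD79A, FCRL2, STAP1 and FCMR under the 2-fold limit (changes -0.94 to -0.33). Defining markers of the lineage were uneven. CR2, the complement receptor of B cells and follicular dendritic cells, was lower in every irradiated animal than in any control and changed by -3.90 ± 0.99 SE without passing the test (adjusted p = 0.066). MS4A1, which encodes CD20, changed by -1.69 (adjusted p = 0.47), with irradiated animal 1 at -2.90, above every control, and the other irradiated animals between -9.22 and -7.38.

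TLR10 and some genes outside the B cell list that B cells share with other lymphoid cells fell as well. TLR10, a Toll-like receptor found mainly on B cells, read -3.64, -3.51, -3.73 and -3.16 in the controls and -7.80, -6.45, -7.16 and -7.25 in the irradiated animals, of which 1 was well above background. TLR10 fell by 3.66 ± 0.35 SE (adjusted p = 2.7e-05), and by 1.11 with normexp, where it was still called. The following 5 genes were picked after their values were seen, and none of them was called when only the arrays of both groups were fitted (adjusted p = 0.052 to 0.16). BTLA, an inhibitory receptor of B and T cells, fell by 2.14 (adjusted p = 0.0023). GPR183, the oxysterol receptor that positions B cells in follicles, fell by 1.73 (adjusted p = 0.0011), and GPR18, a receptor of intraepithelial lymphocytes, by 2.02 (adjusted p = 0.0011). IKZF3, a transcription factor of lymphocyte differentiation, fell by 1.60 (adjusted p = 0.00058). BTK, the kinase of B cell receptor signalling, fell by 1.27 (adjusted p = 0.010) and by 0.97, just under 2-fold, without control 4, and was not called with slide as a block (adjusted p = 0.10). With normexp the changes of GPR18 (-0.92) and BTK (-0.86) were under 2-fold, and those of BTLA (-1.12) and GPR183 (-1.08) just over it. Of the germinal centre and follicle list, 1 of 10 tested genes fell (against 0.565% of all genes), GCSAM, a signalling protein of germinal centre B cells (change -1.37 ± 0.23 SE, adjusted p = 0.0045), and the median was -0.35. GCSAM changed by -0.58 with normexp, and its adjusted p was 0.054 with slide as a block.

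Plasma cell genes had a median change of -0.96, with 3 of 14 tested genes falling (21.4%, against 0.565% of all genes) and none rising, and of -0.79 without control 4, which was high for this list as well. TNFRSF17, the survival receptor of plasma cells, read -3.22, -3.15, -3.07 and -1.55 in the controls and -4.15, -5.36, -5.71 and -7.64 after irradiation. It fell by 2.97 ± 0.58 SE (adjusted p = 0.012), and without control 4, the highest animal, the adjusted p was 0.051. PNOC, a neuropeptide precursor that plasmablasts also express, fell by 1.77 (adjusted p = 0.032; -1.21 on its other probe, adjusted p = 0.096), and PRDM1, which encodes the plasma cell factor Blimp-1, fell by 1.06 (adjusted p = 0.026). Both calls depended on single animals: that of PNOC was lost without any of controls 2, 3 and 4 or irradiated animals 2, 3 and 4 (adjusted p = 0.059 to 0.14), and that of PRDM1 without any of controls 1 and 4 or irradiated animals 1, 2 and 4 (adjusted p = 0.052 to 0.12). Slide as a block ended both calls too (adjusted p = 0.067 and 0.063), and with normexp TNFRSF17 changed by -1.21 and PRDM1 by -0.91, under the 2-fold limit. JCHAIN, the chain that joins secreted IgA, was 2.85, 4.35, 4.77 and 3.48 in the controls and 3.16, 2.74, 2.71 and 1.17 in the irradiated animals. The groups overlapped, and the change of -1.41 ± 0.39 SE did not pass the test (adjusted p = 0.092). MZB1, a chaperone of antibody secretion, ranged from 0.42 to 4.34 in the controls and from -1.36 to 0.01 after irradiation (change -2.36, adjusted p = 0.079).

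T cell genes fell in 4 of 23 tested genes (17.4%, against 0.565% of all genes) and rose in none, with a median change of -0.86, or -0.56 with normexp. For 14 of the 23 all irradiated animals lay below all controls, against 4.36% of all genes. CCR7, which guides naive T cells to lymphoid tissue, read -1.36, -2.48, -1.54 and -1.56 in the controls and -4.06, -4.0, -3.45 and -4.67 in the irradiated animals, and fell by 2.31 ± 0.42 SE (adjusted p = 0.0075). A dimmer probe of CCR7 changed by -0.44 only, and the mean of its probes was not called (-1.37, adjusted p = 0.13). ICOS, a co-stimulatory receptor, fell by 1.85 ± 0.31 SE (adjusted p = 0.0043), and SIT1, an adaptor of the T cell receptor, by 1.29 (adjusted p = 0.0078). CCR7 was not called with slide as a block (adjusted p = 0.077), nor ICOS with normexp (change -0.87), where CCR7 changed by -1.59.

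The chains of the T cell receptor complex had smaller changes. CD3D was 2.07, 1.55, 1.89 and 1.37 in the controls and 0.92, 0.93, 0.98 and 0.39 after irradiation. Its change of -0.92 ± 0.21 SE passed the adjusted p (0.038) but not the 2-fold limit, as did that of CD2, an adhesion molecule of T cells (change -0.86, adjusted p = 0.028). CD3E changed by -0.85 (adjusted p = 0.085). Of the cytotoxic lymphocyte list, 2 of 17 tested genes fell (11.8%, against 0.565% of all genes) and the median was -0.89, or -0.48 with normexp. KLRD1, a natural killer cell receptor subunit, ranged from -2.39 to -1.17 in the controls and from -3.97 to -2.59 after irradiation, and fell by 1.68 (adjusted p = 0.027), a call that was lost without any of controls 1 and 2 or irradiated animals 1, 2 and 4 (adjusted p = 0.069 to 0.11). EOMES, a transcription factor of cytotoxic cells, fell by 1.04 (adjusted p = 0.034) and kept its call without irradiated animal 1 only (adjusted p = 0.054 to 0.12 without any of the other 7 animals). Neither was called with slide as a block (adjusted p = 0.055 and 0.064) or with normexp (changes -1.21 and -0.48). GZMA, a granzyme, changed by -1.16 with overlapping groups (adjusted p = 0.37).

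Of the dendritic cell list 3 of 11 tested genes fell (27.3%, against 0.565% of all genes), beside members that were close to the controls. CLEC9A, a receptor for dead cells on the dendritic cells that cross-present antigen, read -1.99, -2.43, -2.67 and -2.72 in the controls and -7.52, -6.85, -5.45 and -8.3 in the irradiated animals, of which 1 was well above background. It fell by 4.57 ± 0.73 SE (adjusted p = 0.0029), and by 1.58 with normexp. FLT3, the growth factor receptor that dendritic cell precursors depend on, read -4.27, -4.53, -4.68 and -4.77 in the controls and -7.70, -6.01, -7.50 and -7.48 after irradiation, where 1 animal was well above background. It fell by 2.61 ± 0.38 SE (adjusted p = 0.0016), but with normexp the change was -0.48 and the call was lost. CD1C, a lipid-presenting molecule of conventional dendritic cells, was not well above background in any irradiated animal, which makes it at least 2.27-fold lower (adjusted p = 0.019), and its call was lost without control 4, irradiated animal 2 or irradiated animal 3 (adjusted p = 0.056 to 0.074), with slide as a block (0.083) and with normexp. The other 8 tested genes were not altered, among them XCR1, a chemokine receptor of the same cross-presenting cells (change -0.29, adjusted p = 0.54). The median of the list was -0.24.

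Some receptors for homing to the gut fell too. CCR9, the receptor through which lymphocytes follow CCL25 to the small intestine, read -0.93, -1.80, -1.63 and -0.83 in the controls and -4.14, -4.10, -3.51 and -3.05 in the irradiated animals. The fall was 2.40 ± 0.26 SE (adjusted p = 9.1e-05), and 1.66 with normexp. ITGA4, the integrin alpha 4 chain, fell by 1.48 ± 0.22 SE (adjusted p = 0.0019), and its second probe by 1.38. For GPR15, a homing receptor of T cells in the gut, the brightest probe changed by -0.13 (adjusted p = 0.71), but 3 of its 5 other probes were altered (changes -2.43, -2.05 and -1.39). CCR9 and ITGA4 were the only altered genes among 15 tested of the lymphoid homing list (13.3%, against 0.565% of all genes that fell, median -0.22). CCL25, the ligand of CCR9, changed by -0.22 (adjusted p = 0.75). Of the ligands of CCR7, CCL21, made by lymphatic vessels and stroma, changed by 0.40 (adjusted p = 0.39) and CCL19 by 0.99 (adjusted p = 0.31), and neither passed the test.

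Some genes that many kinds of white blood cells express fell by a little more than 2-fold. The 8 given here come from no fixed list and were picked after their values were seen. Others of the kind did not pass the test, such as TYROBP (change -0.36, adjusted p = 0.23), FCER1G (-0.17, adjusted p = 0.69) and the brightest probe of ITGAL (-0.36, adjusted p = 0.22; its other probe was altered at -1.25). CORO1A, an actin regulator of leukocytes, read 1.92, 1.54, 1.64 and 2.10 in the controls and 0.73, 0.48, 0.65 and 0.53 after irradiation, and fell by 1.20 ± 0.15 SE (adjusted p = 0.00058). LCP1, the leukocyte plastin, fell by 1.15 ± 0.16 SE (adjusted p = 0.0014), RAC2, a GTPase of blood cells, by 1.23 ± 0.19 SE (adjusted p = 0.0023), and DOCK2, an activator of RAC proteins, by 1.12 (adjusted p = 0.0027). ARHGDIB, an inhibitor of GDP dissociation in blood cells, fell by 1.14 (adjusted p = 0.00047) and CD52, a surface glycoprotein of lymphocytes, by 1.11 (adjusted p = 0.0015). Without control 4 these falls were 1.0 and 0.99, at the 2-fold limit. PTPRC, which encodes CD45, fell by 1.36 (adjusted p = 0.030) and was not called without any of controls 1, 2 and 4 or irradiated animals 1 and 4 (adjusted p = 0.083 to 0.12). MSN, the membrane linker moesin, fell by 1.02 (adjusted p = 0.0053) and by 0.93 to 0.99 without control 3, control 4 or irradiated animal 2. Normexp left PTPRC, DOCK2 and MSN under 2-fold (changes -0.89 to -0.59).

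**Figure D2:**
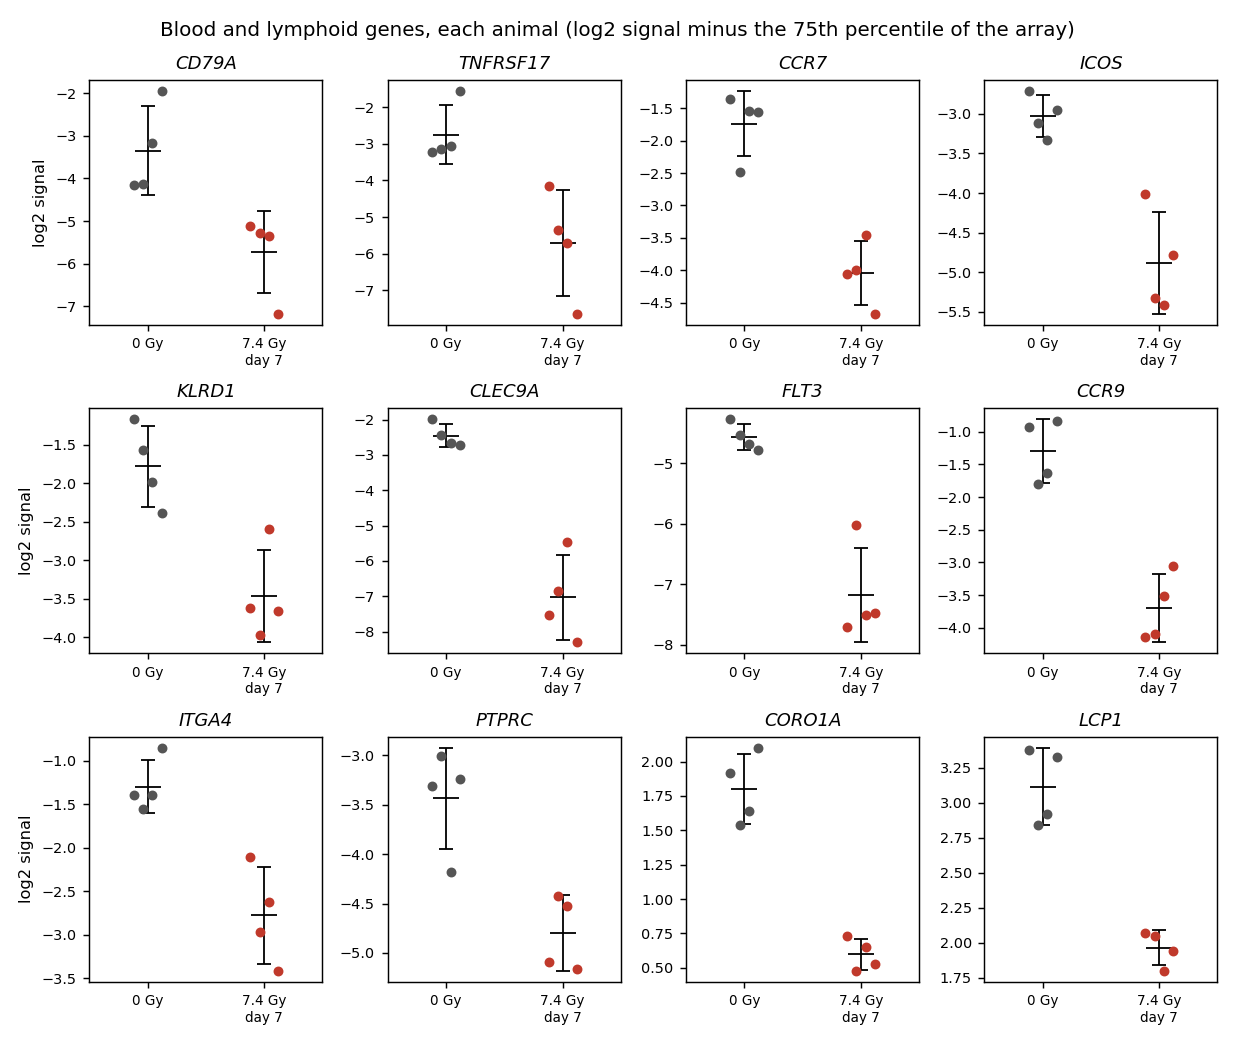
Log2 signal (vertical axis, 0 is the 75th percentile of the array) of 12 genes of lymphoid, dendritic and other white blood cells in each of 4 unirradiated animals (0 Gy, grey) and 4 animals of day 7 after 7.4-Gy TBI (red); the cross bar and whiskers give the mean ± SD. In all 12 panels every irradiated animal lies below every control, against 4.36% of all genes. The genes were chosen among the altered falls, so that this separation largely follows from the choice. The irradiated groups are narrowest for CORO1A and LCP1. CLEC9A fell by 4.57 with 1 irradiated animal well above background, and by 1.58 with normexp, against 1.66 for CCR9.

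Myeloid cells other than dendritic cells had no altered gene in their lists. None of 22 tested macrophage genes was called (median -0.05). CSF1R, the receptor for the macrophage growth factor, was lower in all irradiated animals with a change of -0.77, which passed the adjusted p (0.021) but not the 2-fold limit. None of 11 tested granulocyte genes was called (median 0.01), and S100A8, a neutrophil protein, changed by 0.93 ± 1.17 SE (adjusted p = 0.77). The mast cell protease CPA3 was at -1.36 in the controls and -1.34 after irradiation.

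Of the 45 gene lists examined, which together held 819 tested genes, 12 had an altered member and 33 had none. Among the lists of cell types without an altered gene were absorptive enterocytes (29 tested, median -0.21), goblet cells (15, median -0.14), enteroendocrine cells (16, median 0.08), crypt stem cells (14, median 0.32), endothelium (18, median -0.02) and enteric neurons and glia (14, median 0.25). MUC2, the main mucin of goblet cells, changed by -0.14 (adjusted p = 0.86) and LGR5, the receptor that marks crypt stem cells, by -0.04 (adjusted p = 0.92). OLFM4, another gene of crypt stem cells, varied widely: it was well above background in 1 control and 3 irradiated animals and changed by 2.06 ± 1.34 SE (adjusted p = 0.52). PECAM1, an adhesion molecule of endothelium, was lower in all irradiated animals but did not pass the test (change -0.55, adjusted p = 0.25).

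The smooth muscle list shows how 1 control carried a shift. Its median change was 0.45 over 16 tested genes, none of them altered, and -0.10 without control 1. Relative to the mean of the controls, the list stood at -1.62 in control 1 and at 0.47 to 0.61 in the other controls, against 0.11 to 0.62 in the irradiated animals. ACTG2, the actin of intestinal smooth muscle, read 5.04 in control 1, 8.01 to 8.23 in the other controls and 6.97 to 8.31 after irradiation. The list of enteric neurons and glia was lowest in the same animal (-0.76) and had a median of 0.01 without it. The part of the low muscle signal of control 1 in the results above was not tested, but without control 1 the counts of altered probes were 26 higher and 117 lower.

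**Figure D3:**
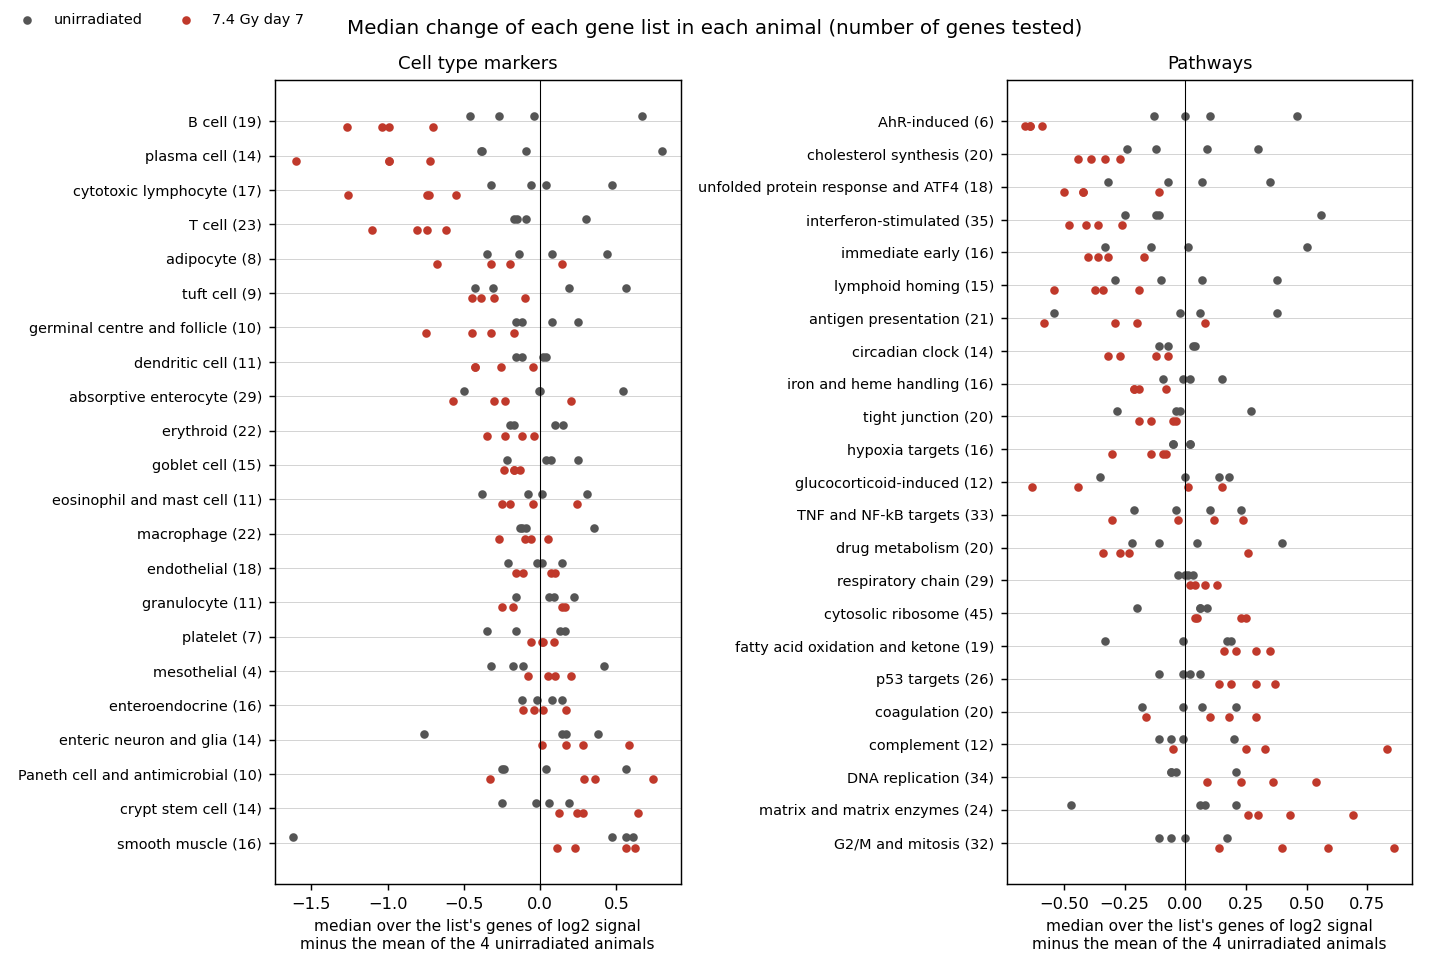
Median over the tested genes of each list (number in brackets) of the log2 signal minus the mean of the 4 unirradiated animals (horizontal axis), with 1 point for each unirradiated (grey) and irradiated (red) animal; the left panel holds 22 lists of cell type markers and the right panel 23 pathways. Of the 45 lists, the irradiated animals lie below all controls for 9 (B cells, germinal centre, plasma cells, T cells, cytotoxic lymphocytes, interferon-stimulated genes, cholesterol synthesis, aryl hydrocarbon receptor and hypoxia) and above them for 2 (p53 targets and matrix), and control 1 lies at -1.62 for smooth muscle. In some of the 9 the groups nearly touch. The highest irradiated animal and lowest control were at -0.26 and -0.25 for interferon-stimulated genes and -0.17 and -0.16 for germinal centre. They were at -0.27 and -0.24 for cholesterol synthesis and -0.08 and -0.05 for hypoxia, against -0.7 and -0.46 for B cells. The lists of interferon, cholesterol, aryl hydrocarbon receptor, hypoxia and matrix had no altered gene.

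Among the rises, the p53 targets EDA2R and PHLDA3 had the lowest adjusted p. EDA2R, a receptor of the TNF receptor family that p53 induces, read -3.69, -2.63, -2.39 and -2.53 in the controls and -0.14, -0.37, -0.01 and 0.18 in the irradiated animals. It rose by 2.73 ± 0.29 SE (adjusted p = 6.5e-05), a 6.62-fold difference. PHLDA3, a p53-induced inhibitor of AKT, rose by 1.69 ± 0.22 SE (adjusted p = 0.00059), from between -3.06 and -1.77 to between -0.89 and -0.49. DDB2, which recognizes DNA lesions for nucleotide excision repair, read 0.98, 1.64, 1.67 and 1.80 in the controls and 2.99, 3.12, 2.96 and 3.15 after irradiation. The irradiated animals lay closer together (SD 0.09) than the controls (SD 0.37), and DDB2 rose by 1.53 ± 0.22 SE (adjusted p = 0.0014), its other probe by 1.47. GDF15, a secreted stress cytokine, was -0.27, -0.30, -0.23 and 0.08 in the controls and 2.15, 2.14, 0.79 and 1.84 after irradiation, and rose by 1.91 ± 0.35 SE (adjusted p = 0.0072).

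These 4 were the altered genes among 26 tested p53 targets (15.4%, against 0.162% of all genes that rose), and none fell. For 10 of the 26 all irradiated animals lay above all controls (3.95% of all genes) and for 2 below (4.36%). The median of the list was 0.21. ZMAT3, a p53-induced RNA-binding protein, passed the adjusted p (0.0045) below the 2-fold limit (change 0.89), and BAX, which opens mitochondria in apoptosis, changed by 0.55 (adjusted p = 0.057). CDKN1A, the p53 target that stops the cell cycle, read 4.71, 3.68, 3.94 and 3.48 in the controls and 3.73, 4.25, 4.35 and 4.10 after irradiation. These groups overlapped, with control 1 the highest of all 8 animals (change 0.15 ± 0.23 SE, adjusted p = 0.81). MDM2, the ubiquitin ligase that p53 induces against itself, changed by 0.10 ± 0.18 SE on its brightest probe (adjusted p = 0.84), and by 0.83 ± 0.16 SE on its other probe, which passed the adjusted p (0.0092) below the 2-fold limit.

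On their brightest probes, no gene of the proliferation lists was called. Of 32 tested genes of G2/M and mitosis, 30 had a change above 0 (52.7% of all genes had one below 0), 10 had irradiated animals all above the controls (3.95% of all genes), and the median was 0.51 with no gene altered. PLK1, a kinase of mitosis, was 1.5 to 1.67 in the controls and 2.23 to 2.80 after irradiation (change 0.91 ± 0.23 SE, adjusted p = 0.066). Of 34 tested genes of DNA replication, 31 had a change above 0 and the median was 0.35. The brightest probe of TYMS, which makes thymidylate for DNA synthesis, changed by 0.96 and passed the adjusted p (0.024) just under the 2-fold limit, and another of its probes was altered at 1.19.

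ANKRD65, which encodes a protein of ankyrin repeats, had the largest rise on the scale used here. Its signal was -8.09, -6.58, -8.28 and -5.35 in the controls, of which 1 was well above background, and -3.58, -2.71, -3.56 and -3.40 in the irradiated animals. The change was 3.76 ± 0.50 SE (adjusted p = 0.00095), but 1.19 with normexp, below those of MT1X (2.51) and EDA2R (2.35) in the same setting. LCN15, a lipocalin, read -6.04, -5.51, -6.21 and -5.12 in the controls and -3.34, -1.07, -2.80 and -3.13 after irradiation, with animal 2 the highest, and rose by 3.13 ± 0.55 SE (adjusted p = 0.0054), a call lost with slide as a block (adjusted p = 0.064) and with normexp (change 1.45). It was the only altered gene among 10 tested of the Paneth cell and antimicrobial list (0.162% of all genes rose), where the enzyme lysozyme (LYZ) changed by 0.24 (adjusted p = 0.77).

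Metallothioneins, small proteins that bind zinc and copper, rose in 4 of 5 tested genes, against 0.162% of all genes, a group that was formed after its values were seen and is no fixed list. MT1X read 3.31, 3.61, 4.04 and 3.17 in the controls and 6.33, 5.78, 6.71 and 5.78 in the irradiated animals. The groups lay more than 1 log2 unit apart, and MT1X rose by 2.62 ± 0.48 SE (adjusted p = 0.0072). MT1E rose by 2.28 ± 0.39 SE (adjusted p = 0.0045), its second probe by 2.21. The probes annotated as MT4 and MT2A rose by 2.24 (adjusted p = 0.019) and 2.01 (adjusted p = 0.036). The calls of these 2 were lost without single animals, MT4 without control 1, control 4 or irradiated animal 3 (adjusted p = 0.062 to 0.067) and MT2A without any of controls 1, 2 and 4 or irradiated animals 1, 2 and 3 (adjusted p = 0.055 to 0.10). Slide as a block ended the calls of MT1X, MT4 and MT2A (adjusted p = 0.050 to 0.12) and kept that of MT1E (0.041), and none of the 4 was called with the arrays of the first scan day alone (0.13 to 0.31). Another probe with the symbol MT2A but a different gene identifier rose by 2.94 (adjusted p = 0.0048). MT3, the form of the nervous system, was not altered (change 0.06, adjusted p = 0.89). Metallothionein copies are nearly identical, so that which of them gave the signal is uncertain. MT1X and MT2A were the only altered genes among 12 tested of the glucocorticoid-induced list (16.7%, against 0.162% of all genes that rose), whose median was -0.11.

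Some rises were in genes of metabolism, of which CPS1, GAMT and HSDL2 were picked after their values were seen. The fixed lists of fatty acid oxidation, cholesterol synthesis and drug metabolism had no altered gene (19, 20 and 20 tested). CYP7B1, the hydroxylase that clears oxysterols, was well above background in all irradiated animals and in no control, and was at least 2.29-fold higher (adjusted p = 0.015), a call that was lost without control 1, control 2 or irradiated animal 1 (adjusted p = 0.050 to 0.068). CPS1, which makes carbamoyl phosphate for the urea cycle and citrulline, read 2.88, 3.00, 2.66 and 2.02 in the controls and 3.53, 3.93, 3.83 and 3.70 after irradiation. It rose by 1.11 ± 0.23 SE (adjusted p = 0.023), with its second probe at 1.09 without passing the test (adjusted p = 0.15), and was not called without control 4 or irradiated animals 2, 3 or 4 (change 0.90 to 1.12, adjusted p = 0.061 to 0.078). GAMT, the last enzyme of creatine synthesis, rose by 1.24 (adjusted p = 0.015) and by 0.99 and 1.1 without irradiated animals 1 and 4, neither of them called. HSDL2, a peroxisomal dehydrogenase, was called on all of its 3 tested probes (changes 1.05, 1.17 and 1.18), and its brightest probe was not called without any of controls 1, 2 and 4 or irradiated animals 1, 3 and 4 (adjusted p = 0.061 to 0.12). Of these genes CPS1, GAMT and HSDL2 were not called with slide as a block (adjusted p = 0.063 to 0.11), nor CYP7B1, CPS1 and HSDL2 with normexp (changes 0.50 to 1.03).

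SERPINB5, known as maspin, rose by 2.66 ± 0.58 SE (adjusted p = 0.027), with 2 controls well above background. The carnosinase CNDP1 rose by 1.93 (adjusted p = 0.027), PSD2, an exchange factor of ARF proteins also well above background in 2 controls, by 2.06 (adjusted p = 0.019) and CLIC6, of the chloride intracellular channel family, by 2.12 (adjusted p = 0.038). The other probes of SERPINB5 (1.68, adjusted p = 0.20) and CLIC6 (0.80, adjusted p = 0.48) were not called, and CLIC6 was not called on the mean of its probes (1.46, adjusted p = 0.12). Each of the 4 calls depended on single animals. SERPINB5 was not called without any of controls 1, 2 and 3 or irradiated animals 2, 3 and 4 (adjusted p = 0.056 to 0.082), PSD2 without irradiated animal 2, 3 or 4 (0.056 to 0.063), CNDP1 without any animal but irradiated animal 4 (0.051 to 0.082) and CLIC6 without any animal but irradiated animal 3 (0.065 to 0.11). Among secreted signals and receptors, BMP7, PAPPA and SCTR were picked after their values were seen. BMP7, a bone morphogenetic protein, rose by 1.53 (adjusted p = 0.037) and changed by 1.54 on its other probe (adjusted p = 0.077). PAPPA, a protease that frees insulin-like growth factors, rose by 1.49 (adjusted p = 0.023) and SCTR, the secretin receptor, by 1.44 (adjusted p = 0.022). BMP7 was not called without any of controls 2, 3 and 4 or irradiated animals 2, 3 and 4 (0.054 to 0.12), PAPPA without controls 1 or 3 or irradiated animals 1 or 4 (0.057 to 0.090) and SCTR without controls 1 or 4 or irradiated animal 2 (0.064 to 0.082). The unnamed locus LOC100429499 rose by 1.71 (adjusted p = 0.015) and was not called without irradiated animal 1 or 4 (0.057 and 0.062). Among these 8 genes, only SERPINB5 and PAPPA were called with slide as a block (adjusted p = 0.046 and 0.041), and only SCTR with normexp (change 1.0). With normexp SERPINB5 changed by 0.96, PSD2 by 0.63, CNDP1 by 1.15 and CLIC6 by 1.21.

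LCT, the brush border enzyme lactase, differed between its probes. The brightest probe read -3.36, -3.82, -3.76 and -3.64 in the controls and -2.43, -3.20, -3.26 and -1.85 after irradiation (change 0.96 ± 0.49 SE, adjusted p = 0.41). A second probe, which no control had well above background and every irradiated animal had, was at least 11.4-fold higher (adjusted p = 0.0036). Of the 29 tested absorptive enterocyte genes 21 had a change below 0, among them the sugar carriers SLC2A2 (-1.33, adjusted p = 0.17) and SLC2A5 (-1.28, adjusted p = 0.26), and 8 above it. Of the latter, FABP2, the intestinal fatty acid binding protein, well above background in 1 control, changed by 2.98 ± 0.98 SE (adjusted p = 0.17) and FGF19, the ileal hormone that limits bile acid synthesis, by 2.36 ± 0.91 SE (adjusted p = 0.26). For FGF19, irradiated animal 2 was at -3.44, below every control, and the other irradiated animals were between 0.27 and 1.25.

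Some other genes that fell were in none of the gene lists, among them genes of epithelium, transport and lipid metabolism. SLC6A19 and FFAR4 were picked after their values were seen. GPRC5A, an orphan receptor of epithelia, read 0.44, -1.32, -1.46 and -0.96 in the controls and -3.68, -4.41, -2.74 and -3.71 in the irradiated animals, and fell by 2.81 ± 0.42 SE (adjusted p = 0.0017), and by 2.09 with normexp. SLC6A19, the brush border carrier of neutral amino acids, read 1.88, 0.78, 1.59 and 1.27 in the controls and -0.20, 0.46, 0.26 and -0.38 after irradiation. It fell by 1.34 ± 0.24 SE (adjusted p = 0.0064). THRSP, a regulator of lipid synthesis, was well above background in no irradiated animal and at least 5.54-fold lower (adjusted p = 0.0055), and LOC693900, an unnamed locus, was at least 2.18-fold lower (adjusted p = 0.012, and 0.051 and 0.050 without control 4 and irradiated animal 4). FFAR4, a receptor for long-chain fatty acids, fell by 1.37 (adjusted p = 0.042) and was not called without any of controls 1, 3 and 4 or irradiated animals 1, 2 and 3 (adjusted p = 0.051 to 0.14). NAPSA, an aspartic protease, fell by 3.04 (adjusted p = 0.043), but its second probe changed by -0.17 and the call was lost without any of the 4 controls or irradiated animals 3 and 4 (adjusted p = 0.076 to 0.16). NAPSA and FFAR4 were not called with slide as a block (adjusted p = 0.066 and 0.17), nor THRSP, LOC693900 and FFAR4 with normexp (changes -0.85 to -0.21), where NAPSA changed by -1.88.

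Of 33 tested TNF and NF-kB targets, 1 was altered (3.03%, against 0.727% of all genes), BCL2A1, a survival protein of leukocytes. BCL2A1 read -2.07, -2.05, -2.64 and -1.36 in the controls and -4.61, -3.83, -3.78 and -4.54 after irradiation, and fell by 2.16 ± 0.30 SE (adjusted p = 0.0011), with its second probe at -2.06, and by 1.18 with normexp. BCL2L11, which encodes the pro-apoptotic protein BIM, fell by 1.02 (adjusted p = 0.039), but its other probes were not called (-0.70, adjusted p = 0.29, and -0.40, adjusted p = 0.28), nor was the mean of its probes (-0.71, adjusted p = 0.063), nor the brightest probe without any of controls 1, 2 and 4 or irradiated animals 2, 3 and 4 (adjusted p = 0.053 to 0.15). SLAMF6, a receptor of T and natural killer cells, fell by 2.46 (adjusted p = 0.021) with 2 irradiated animals well above background, and its second probe, with none, was at least 2.11-fold lower (adjusted p = 0.0028). The brightest probe was not called without any of controls 1, 2 and 4 or irradiated animals 1 and 4 (adjusted p = 0.051 to 0.093). SLAMF6 was not called with slide as a block either (adjusted p = 0.077), and with normexp SLAMF6 (-0.46) and BCL2L11 (-0.79) changed by less than 2-fold. TNF itself changed by -0.16 (adjusted p = 0.87). None of 35 tested interferon-stimulated genes was altered (median -0.31, and -0.16 without control 1), and neither MX1 (change -0.30, adjusted p = 0.75) nor the chemokine CXCL10 (0.81, adjusted p = 0.61) passed the test. None of 6 tested genes of the aryl hydrocarbon receptor list was altered, with a median of -0.67. CYP1A1, the main target of this receptor, ranged from -1.96 to 3.71 in the controls and from -6.11 to -0.56 in the irradiated animals. Control 3 lay within the irradiated range, and the change of -4.53 ± 1.96 SE did not pass the test (adjusted p = 0.32). MMP2, a matrix metalloproteinase, was higher in every irradiated animal without passing it (change 0.97, adjusted p = 0.061).

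Day 7 was next compared directly with day 4 after the same dose, to show where the later day differs. Between the days 340 probes were altered (0.942%), 214 higher and 126 lower on day 7, and 722 without adjustment (2%). Of all probes 0.593% were higher and 0.349% lower, and of all genes 0.67% were higher and 0.388% lower. The count of altered probes was 176 without animal 1 of day 4. Of the 23 genes that rose on day 7, 15 were lower than on day 4 (51.2% of all genes were), 5 of them past the test, and 1 was higher past the test. GDF15 was 2.33 lower than on day 4 (adjusted p = 0.0018), LCN15 3.96 lower (adjusted p = 0.0011) and ANKRD65 2.07 lower (adjusted p = 0.027), with PHLDA3 1.07 lower (adjusted p = 0.011) and PSD2 1.78 lower (adjusted p = 0.027). ZMAT3 was 1.01 lower (adjusted p = 0.0015). CPS1 ran the other way. Its signal was 2.64 ± 0.44 (SD, n = 4) in the controls, 2.55 ± 0.40 (SD, n = 4) on day 4 and 3.75 ± 0.17 (SD, n = 4) on day 7, a difference of 1.19 between the days (adjusted p = 0.0096). For the metallothioneins the difference between the days did not pass the test, at 0.45 for MT1X (adjusted p = 0.65) and 0.71 for MT1E (adjusted p = 0.33).

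Of the 80 genes that fell, 79 were lower on day 7 than on day 4, against 51.2% of all genes. The median difference was -0.74, and 12 of the 79 passed the test. Among these were GPRC5A (-2.40, adjusted p = 0.0045), TLR10 (-1.54, adjusted p = 0.021), PRDM1 (-1.48, adjusted p = 0.0023), BCL2A1 (-1.44, adjusted p = 0.011), ICOS (-1.33, adjusted p = 0.022), GPR18 (-1.19, adjusted p = 0.022), GPR183 (-1.15, adjusted p = 0.011) and SLC6A19 (-1.08, adjusted p = 0.018). For SLC6A19 the mean was 1.38 in the controls, 1.11 on day 4 and 0.03 on day 7. Globin RNA and SERPINA2 did not differ between the days past the test, with HBB 1.69 lower (adjusted p = 0.14), HBA 0.11 lower (adjusted p = 0.89) and SERPINA2 0.04 lower (adjusted p = 0.96). The genes were chosen for their change on day 7, and the same day 7 arrays enter both comparisons, so that a lower value on day 7 favours both. Only 6 probes were altered between the days when the arrays of the first scan day alone were used.

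**Figure D4:**
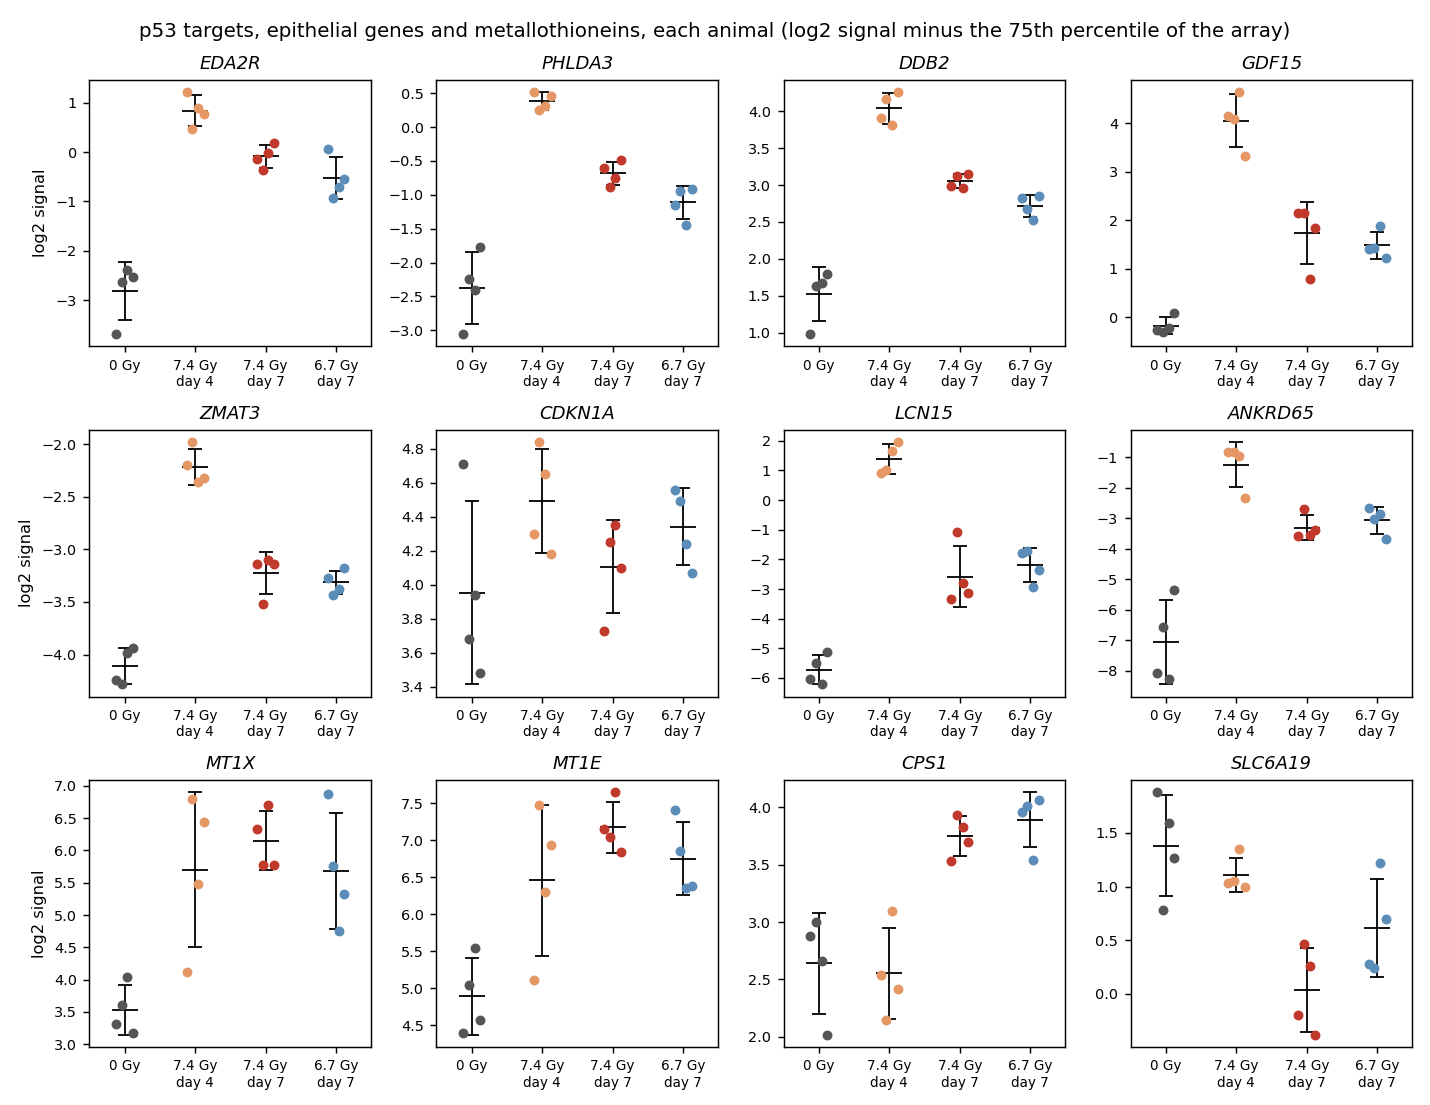
Log2 signal (vertical axis, 0 is the 75th percentile of the array) of 6 p53 targets, LCN15, ANKRD65, MT1X, MT1E, CPS1 and SLC6A19 in each of 4 unirradiated animals (0 Gy), 4 animals of day 4 and 4 of day 7 after 7.4-Gy TBI and 4 of day 7 after 6.7-Gy TBI; the cross bar and whiskers give the mean ± SD. GDF15, LCN15 and ANKRD65 were lower on day 7 than on day 4, CPS1 was higher, and for CDKN1A the groups overlapped.

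Between 7.4-Gy and 6.7-Gy TBI on day 7, no probe was altered in the limma test (0%), and 141 probes (0.39%) had an unadjusted p under 0.05 with a 2-fold change. Of the 23 genes that rose after 7.4 Gy, 18 were higher than after 6.7 Gy, with a median difference of 0.42 (range -0.40 to 0.98). Of the 80 that fell, 73 were lower, with a median difference of -0.29 (range -2.01 to 1.04) and a median SE of 0.26. Of all genes, 54.8% were lower after 7.4 Gy than after 6.7 Gy. The genes were chosen on the arrays of 7.4 Gy, which enter this comparison too. The largest difference among the named falls was that of VPREB3 (-2.01, adjusted p = 0.99), and HBB was 0.71 lower after the higher dose (adjusted p = 0.99). With 4 animals in each group, no difference between the doses was detected in any probe.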

How the data were processed

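Per the labels and the paper's methods, the authors labelled total RNA of whole ileum with Cy3, hybridized it to single-color Rhesus Macaque arrays and read them with Feature Extraction 11.0.1.1. The deposited scanner files give each spot a background-subtracted intensity, not scaled between arrays. The authors' deposited table of log2 values was scaled to the 75th percentile of each array and centred on the median of each probe, and it served as an alternative. Here the log2 intensity was averaged over the spots of a probe and the 75th percentile over all 43603 probes was subtracted. The 36108 probes that exceeded background clearly in all animals of 1 or more of the 7 groups were fitted over 24 arrays with limma 3.58.1 in R 4.3.3 (the package data.table had version 1.17.8), each group having its own mean. Symbols (23795 probes) came from the authors' table and, by accession, from RefSeq (T2T-MMU8v2.0, names only, since the build of the array is not given in the sources used here). The number of arrays limits precision, and nothing in the labels pairs animals.

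The rule named the 15 largest rises and falls among called genes whose groups do not overlap, up to 4 called members of each list, and fixed anchor genes, some of which are not reported here. A further 38 genes were named after their values were seen, among them PTPRC, CORO1A, CPS1, GPR15 and SLC6A19. The comparison, members and lists were chosen with earlier results of these data known, and no list was tested. Where no array of a group was well above background, a fold is a bound, with each dim signal raised to the dimmest one that passed on its array. In normexp the median spot signal stood in for the mean, which is not used here. The fit was tested on simulated data. Alternatives covered background correction, scaling, filters, the samples fitted, slide and scan day as blocks (scan day chosen after seeing the data), the methods' t-test and leaving out each animal.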

Additional observations from a re-analysis of the deposited data

Results flagged for a closer look

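In 17 of 224 groups of 4 animals (7.59%), 1 animal lay apart from the other 3 by Dixon's criterion, which chance meets in about 1 of 20 groups. Control 4 accounted for 5 of them: it was high for TNFRSF17 (-1.55, others -3.22 to -3.07), SIT1 (0.74, others -0.54 to -0.33), BTK (-1.38, others -2.72 to -2.50) and PECAM1 (0.54, others -0.66 to -0.54), and low for THRSP (-5.33, others -3.62 to -3.43). Control 1 was low for ACTG2 (5.04, others 8.01 to 8.23). Control 2 was high for FABP2 (-5.67, others -9.22 to -8.72) and low for TFRC, the transferrin receptor (2.87, others 3.76 to 3.92).

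Among the irradiated animals, animal 4 was low for CD79A (-7.17, others -5.35 to -5.12), CD3D (0.39, others 0.92 to 0.98) and GPR18 (-5.68, others -4.19 to -4.12). Animal 3 was low for CCL19 (-1.60, others -0.18 to 0.05) and CSF1R (-0.21, others 0.34 to 0.41). Animal 2 was high for FLT3 (-6.01, others -7.70 to -7.48) and low for ZMAT3 (-3.52, others -3.14 to -3.10). Animal 1 was high for BAX (2.23, others 1.83 to 1.88) and XCR1 (-4.87, others -5.39 to -5.33).

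Of the named genes, 15 differed between day 7 and day 4 after 7.4 Gy by limma's direct test and 0 between the doses on day 7. The day 7 minus day 4 differences on the log2 scale were -3.96 for LCN15, -2.40 for GPRC5A, -2.33 for GDF15, -2.07 for ANKRD65, -1.78 for PSD2, -1.54 for TLR10, -1.48 for PRDM1, -1.44 for BCL2A1, -1.33 for ICOS, -1.19 for GPR18, -1.15 for GPR183, -1.08 for SLC6A19, -1.07 for PHLDA3 and -1.01 for ZMAT3. For CPS1 the difference was 1.19.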

How the results depend on the processing

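The count of 205 probes altered against the controls stayed within 1.5 times under quantile normalization (197), the authors' table (206), 3 other filters (151 to 207) and intensity trend with robust moderation (212), and ran from 138 to 202 without 1 animal. It was 87 with normexp, 68 with only the arrays of both groups, 129 with slide and 136 with scan day as a block, 67 with the arrays of the first scan day alone (both scan day settings chosen after seeing the data), and 0 with the methods' t-test after Benjamini-Hochberg adjustment (499 before it). The difference between the doses stayed at 0 except for 94 in the t-test without adjustment and 2 without irradiated animal 3 (0 to 2 without 1 animal). Between days 7 and 4 the count of 340 was 212 with normexp, 198 with only the arrays of both groups, 197 with slide as a block, 29 and 598 in the t-test with and without adjustment, 6 on the first scan day, and 176 to 376 without 1 animal. Same-numbered animals did not deviate together (correlations -0.025 to 0.10), and with the replicate number as a block the counts were 196, 0 and 339.

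Of 68 named altered genes, 0 reversed in any setting, 36 were called without each single animal in turn, and 11 were called in all 23 settings other than the t-test with adjustment: HBB, HBA, SERPINA2, CCR9, BCL2A1, CORO1A, LCP1, RAC2, EDA2R, PHLDA3 and DDB2. TLR10 and CLEC9A were called in 22, and the filter for probes above background on all arrays left them untested. Of 45 list medians, 24 moved by more than the spread of the irradiated animals in 1 or more settings. With normexp the medians were -0.38 for B cells, -0.56 for T cells, -0.48 for cytotoxic lymphocytes and -0.50 for the aryl hydrocarbon receptor list, which moved in 10 settings (-0.74 to -0.50), as did goblet cells (-0.33 to -0.11). Signs that turned were all of genes not called. Leaving out 1 animal gave ranges of -0.55 to 0.51 for ACTG2, -0.25 to 0.30 for CPA3, -0.02 to 0.22 for FABP6, 0.00 to 0.41 for CDKN1A, -0.15 to 0.00 for HBA1, -0.41 to 0.06 for KLF1, -0.17 to 0.03 for LGR5, -0.31 to 0.01 for MUC2 and -0.32 to 0.06 for TNF. With slide as a block the change was -0.03 for CPA3, 0.07 for KLF1, 0.11 for LGR5 and 0.03 for GPR15, with scan day as a block 0.00 for CPA3 and 0.07 for LGR5, and on the first scan day 0.14 for LGR5 and 0.06 for GPR15. Quantile normalization gave 0.00 for HBA1, normexp 0.02 for KLF1 and 0.00 for XCR1, and the mean of all probes -0.06 for CPA3. The causes were not tested. Signal near background limits genes such as VPREB3, CLEC9A, CD1C and THRSP to bounds or to changes that rest on dim values.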
